A study of Mus musculus with 6 samples.

Results

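The suspensions of lower abdominal muscle (LAM) held 1131 barcodes dominated by transcripts of the contractile apparatus, out of 63647 deposited barcodes. A barcode stands for a droplet that held a cell, a nucleus or a fragment, and a unique molecular identifier (UMI) stands for a captured transcript. The 1131 barcodes had at least 1000 UMIs, at least 3% of them from *Acta1*, which encodes skeletal muscle actin, and at least 5 UMIs of *Ckm*, the muscle creatine kinase. They had no UMI of *Pecam1*, *Pdgfra* or *Cd14*, markers of endothelial cells, fibroblasts and monocytes, and there was no limit on mitochondrial UMIs. They were taken for skeletal myonuclei and muscle fiber fragments, a name checked below, and are called *Acta1*-high barcodes here. The WT mice had 173, 299 and 90 of them and the Aromhum mice 196, 163 and 210, with 582653 to 1465744 UMIs per mouse in all. The other 58105 barcodes with at least 1000 UMIs serve below as the other barcodes.

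Skeletal muscle fibers are long multinucleated cells whose force comes from sarcomeres built of actin, myosin, tropomyosin and troponin. Slow fibers carry the heavy chain *Myh7* with slow forms of the troponins and myosin light chains and lean on oxidative metabolism. Fast fibers carry *Myh2*, *Myh1* or *Myh4*, the heavy chains of type IIA, IIX and IIB fibers, with fast forms of the same proteins, and *Myh4* fibers rely most on glycolysis.

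All 6 mice were males of the FVB/N strain aged 9 to 10 weeks, 3 WT controls and 3 Aromhum mice with a scrotal hernia. Aromhum mice carry human *CYP19A1*, the aromatase that converts androgens to estrogens, under the native promoters of the gene and not a muscle promoter. Minced muscle was digested with collagenase and dispase and strained to take out multinucleated cells. A WT mouse and an Aromhum littermate were processed on each of 3 dates, and the labels do not tie dates to replicate numbers. *CYP19A1* had 3 UMIs in the *Acta1*-high barcodes of Aromhum replicate 1 and 0 in those of the other 5 mice, which allows up to 4.09 and 2.05 CPM in the other two Aromhum mice by counting error alone. In the other barcodes it was at 7.08, 7.17 and 8.63 CPM in Aromhum mice and 0 in WT mice.

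The 5 muscle markers were high in the *Acta1*-high barcodes, as the rule requires of the first pair. Averaged over the 6 mice, *Acta1* was at 68894 ± 7344 CPM (SD, n = 6 mice) and *Ckm* at 20975 ± 2474 CPM. The fast troponin T *Tnnt3* was at 19519 ± 2002 CPM, the fast regulatory light chain *Mylpf* at 39039 ± 3603 CPM and *Myh4* at 766 ± 184 CPM. In the other barcodes the same 5 genes averaged 4.68 to 189 CPM. CPM are the UMIs of a gene per 1000000 UMIs of the barcodes named, both summed per mouse.

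RNAs that stay in the nucleus were scarce in most of these barcodes, which goes against calling most of them nuclei. *Malat1*, a long noncoding RNA of nuclear speckles, was at 618, 453 and 331 CPM in WT mice and 1070.5, 1333 and 396 CPM in Aromhum mice. In the other barcodes of the same mice it was at 20122 to 26729 CPM, and the *Acta1*-high barcodes held 1.29% to 5.32% of that level. Of the 1131 barcodes, 45.8% had a *Malat1* UMI, and their median depth was 2781 UMIs. Endothelial barcodes (at least 3 *Pecam1* UMIs) had one in 99.8% of cases at a median depth of 7895 UMIs. The *Malat1* UMIs were uneven, and a single *Acta1*-high barcode held from 209 of 1305 (Aromhum replicate 1) to 111 of 193 (WT replicate 3). Of the 1131 barcodes, 21 had over 1% of their UMIs from a list of 4 such nuclear RNAs. *Neat1*, which scaffolds nuclear paraspeckles, was at 32.6 to 165 CPM against 1736 CPM on average in the other barcodes.

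Mitochondrial transcripts were low too. The median share of UMIs from the 13 mitochondrial genes was 0.719, 3.12 and 0.173% in the *Acta1*-high barcodes of WT mice and 0.203, 0.499 and 0.231% in those of Aromhum mice. The other barcodes had medians of 3.63 to 6.2%, above the *Acta1*-high barcodes in 6 of 6 mice. WT replicate 2 had the highest mitochondrial share in both kinds of barcode. The genotypes differed by -1.03 percentage points in the mean of these medians, Aromhum minus WT (exact permutation test, 2-sided, p = 0.4, where 0.1 is the lowest p that 3 mice against 3 can give). Without WT replicate 2 the difference was -0.135 points. Within each mouse, barcodes with a higher mitochondrial share had fewer UMIs, with Spearman's rho between -0.72 and -0.49 over 90 to 299 barcodes of 1 library each, as a description.

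**Figure D1:**
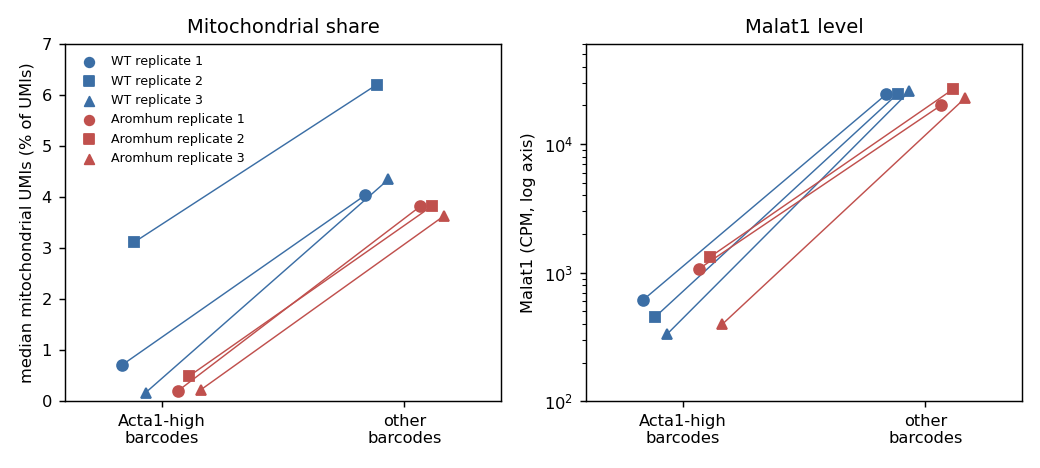
Median mitochondrial share (left, percent of UMIs) and *Malat1* level (right, CPM, log axis) in *Acta1*-high and other barcodes, with a line joining both values of a mouse, blue for WT and red for Aromhum. Both quantities were lower in the *Acta1*-high barcodes of all 6 mice, and among the *Acta1*-high barcodes WT replicate 2 stood highest on the left, at 3.12%.

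The summed markers of each other cell type were lower in the *Acta1*-high than in the other barcodes in 6 of 6 mice, by amounts that differed between lists. For the fibroblast, endothelial and macrophage lists this was in part fixed by the rule, which removed barcodes with *Pdgfra*, *Pecam1* or *Cd14*. The 10 fibroblast markers summed to 191 to 746 CPM in WT and 589 to 663 CPM in Aromhum mice, 0.769% to 1.87% of their level in the other barcodes of the same mouse. The 10 endothelial markers summed to 82 to 253 CPM (1.6% to 7.63% of their level in the other barcodes), the 12 macrophage and immune markers to 13.6 to 73.8 CPM (0.773% to 4.3%) and the 8 mural and smooth muscle markers to 38.5 to 190.3 CPM (2.31% to 19.6%, highest in Aromhum replicate 1). The 6 glial markers were at 28.2 to 51.5 CPM in WT and 5.46 to 20.5 CPM in Aromhum mice, 4.71% to 8.38% of their level in the other barcodes. The 5 mesothelial markers were at 1.72 to 5.94 CPM in WT and 19.7 to 54.6 CPM in Aromhum mice, 1.54% to 12.1% of that level. The genotypes did not overlap in either, in opposite directions (exact permutation test, 2-sided, p = 0.1 for both, the lowest the design allows). The glial markers of the other barcodes were at 362 to 898 CPM in WT and 111 to 272 CPM in Aromhum mice and the mesothelial markers at 112 to 249 CPM in WT and 396 to 755 CPM in Aromhum mice, which did not overlap either. Of the mesothelial *Msln*, a single barcode held 25 of 27 UMIs in Aromhum replicate 2 and another 38 of 49 in Aromhum replicate 3. The 7 muscle stem cell and myoblast markers were at 69.8 to 116 CPM (14.5% to 26%), with the satellite cell gene *Pax7* at 0 in every mouse. *Cdh19* of the glial list was also at 0, and *Pecam1*, *Pdgfra* and *Cd14* were at 0 by the rule. The 5 erythrocyte genes summed to 1.36 to 75.9 CPM (2.5% to 28.6%). Scrublet marked 5 of the 1131 barcodes as doublets. Of 63175 barcode sequences 471 occurred in more than 1 library, and 12 of the 1131 barcodes carried such a sequence.

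Just inside the *Acta1* limit, the 126 barcodes with 3% to 4% *Acta1* had a median of 2158 UMIs, 2.06% mitochondrial UMIs and 37 *Ckm* UMIs. Just outside it, the 65 barcodes with 2% to 3% that met the rest of the rule had 2541 UMIs, 3.12% and 31 *Ckm* UMIs, with a median of 0.0884% of UMIs from markers of other cell types. The 43 barcodes with 1% to 2% had a median of 6031 UMIs and 2.07% of UMIs from those markers. Of 1208 barcodes past the *Acta1* limit, 11 had too few *Ckm* UMIs, 6 of the 1131 had 5 or 6 of them, and 66 more were left out for a UMI of *Pecam1* (32), *Pdgfra* (17) or *Cd14* (19). At 10% *Acta1* or more only 55 barcodes were left, 2 to 25 per mouse.

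*Acta1*-high barcodes were a small share of the barcodes in both genotypes. They were 1.85, 3.12 and 1.2% of the barcodes with at least 1000 UMIs in the WT mice and 1.73, 1.25 and 2.49% in Aromhum mice. The WT mice spanned the Aromhum mice, with WT replicate 2 highest and WT replicate 3 lowest of all 6. The means were 2.06% ± 0.977 in WT and 1.82% ± 0.621 in Aromhum mice (SD, n = 3 each), a difference of -0.233 points (exact permutation test, 2-sided, p = 0.7). The sign of this difference turned without WT replicate 2 (0.299 points) and without Aromhum replicate 2 (0.0513 points). A share of droplets that passed a strainer cannot be read as a share of the muscle, and in summed barcodes fewer fibers of a type and less RNA per fiber cannot be told apart.

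The *Acta1*-high barcodes were of several fiber types. Each barcode with at least 3 UMIs of the adult heavy chains *Myh1*, *Myh2*, *Myh4* and *Myh7* was placed by the most frequent of them, which put 338 in the *Myh1* group, 257 in the *Myh2*, 242 in the *Myh4* and 74 in the *Myh7* group, with 220 left over for few UMIs or a tie. Levels below are CPM pooled over the barcodes of a group, as a description with no test, and no gene but the 4 heavy chains placed a barcode. The groups were not exclusive: 40.5% of barcodes had UMIs of 2 or more of the 3 fast heavy chains, 20.4% after thinning each to 1000 UMIs. A *Myh7* UMI was seen in 8.58% of the *Acta1*-high barcodes and in 0.532% of endothelial barcodes.

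Most slow-fiber genes shown here were highest in the *Myh7* group. The slow regulatory light chain *Myl2* was at 22514 CPM in the *Myh7* group, 574 CPM in the *Myh2* group and 1.91 CPM in the *Myh1* group. By mouse it was at 15931 to 27122 CPM in the *Myh7* group and 79.2 to 1398 CPM in the *Myh2* group, highest there in Aromhum replicate 3. The slow troponins *Tnnt1*, *Tnni1* and *Tnnc1* were at 22202, 9314 and 19151 CPM in the *Myh7* group, against 2.8, 2.8 and 1.87 CPM in the *Myh4* group. *Tpm3*, the slow tropomyosin, went from 18153 to 147 CPM between the *Myh7* and *Myh2* groups, where WT replicate 1 (774 CPM) and Aromhum replicate 3 (233 CPM) were highest and the other 4 mice at most 16 CPM, while *Myoz2*, which anchors calcineurin at the Z-disc, was still at 1735 CPM in the *Myh2* group. *Csrp3*, a Z-disc protein of the slow list, was at 4600.4 CPM in the *Myh7* and 4193 CPM in the *Myh2* group, and was higher in the *Myh2* group in 4 of 6 mice. *Sln*, a peptide that restrains the calcium pump, was at 3160.2, 1142, 181 and 9.33 CPM in the *Myh7*, *Myh2*, *Myh1* and *Myh4* groups. Within each mouse *Myh7* and *Tnni1* UMIs went together across barcodes, with Spearman's rho of 0.57 to 0.85; both counts also depend on the depth of a barcode.

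Fast-fiber genes followed the opposite order. Parvalbumin (*Pvalb*), the calcium buffer of the fastest fibers, was at 6935 CPM in the *Myh4* group, 2853 in the *Myh1*, 324 in the *Myh2* and 0 in the *Myh7* group. *Actn3*, the fast alpha-actinin, was at 3141, 1527, 134 and 0 CPM in the same order. *Tnnt3* and *Tnni2*, fast troponins, separated *Myh7* barcodes (723 and 1093 CPM) from the 3 fast groups (at least 20232 and 20956 CPM). Myoglobin (*Mb*), which stores oxygen, and *Fabp3*, which carries fatty acids, were at 11358 and 3719 CPM in the *Myh2* group against 2177 and 379.8 CPM in the *Myh4* group, and *Ldha*, a lactate dehydrogenase of glycolytic fibers, was at 2118 against 4453 CPM.

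**Figure D2:**
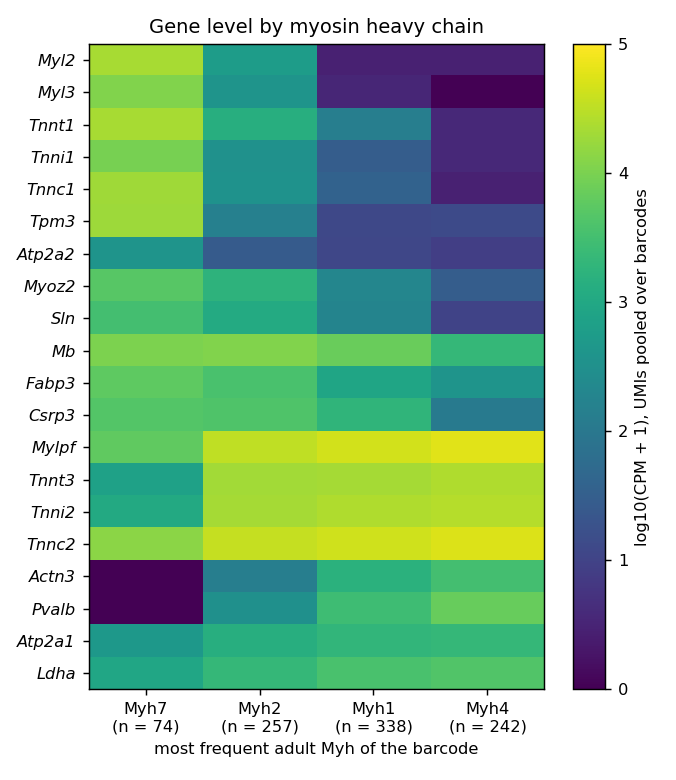
Levels of 20 sarcomere, calcium and metabolic genes (rows) in *Acta1*-high barcodes grouped by their most frequent adult heavy chain (columns), as log10 of CPM plus 1 over all 6 mice, with n the number of barcodes. The upper genes are brightest in the *Myh7* column, and *Actn3* and *Pvalb* are at 0 there and brightest in the *Myh4* column.

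The makeup of the heavy chains was compared between genotypes within the barcodes that passed the strainer. Of all adult heavy chain UMIs, *Myh4* took 25.5, 27.1 and 34.6% in WT mice and 27.7, 17.4 and 22.2% in Aromhum mice, and the ranges overlapped. Its share averaged 29.1% ± 4.84 in WT and 22.4% ± 5.13 in Aromhum mice (SD, n = 3 each; exact permutation test, 2-sided, p = 0.3). *Myh7* took 1.3, 4.35 and 9.23% in WT mice and 5.93, 9.7 and 17.7% in Aromhum mice, with Aromhum replicate 3 highest and WT replicate 1 lowest. The *Myh7* means were 4.96% ± 4 in WT and 11.1% ± 6.03 in Aromhum mice (p = 0.2, same exact test). *Myh1* averaged 42% ± 8.72 in WT and 34.4% ± 6.8 in Aromhum mice (p = 0.4, exact) and *Myh2* 23.9% ± 7.37 in WT and 32.1% ± 7.04 in Aromhum mice (p = 0.3, exact). With all *Acta1*-high barcodes none of the 4 shares of UMIs separated the genotypes. With limits of 200 to 2500 genes and at most 5% mitochondrial UMIs, the *Myh4* difference was -1.45 points against -6.63 without them (p = 0.9 with them, exact permutation test). The *Myh7* share then averaged 3.1% in WT and 10.4% in Aromhum mice and did not overlap (exact permutation test, p = 0.1, the lowest the design allows).

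Counted as barcodes, with every barcode of equal weight, the genotypes no longer overlapped for *Myh4* and *Myh7*. *Myh4* was the most frequent heavy chain of 32.1, 28.4 and 37.7% in WT mice and 20.7, 16 and 25.3% in Aromhum mice, a difference of -12 points (exact permutation test, 2-sided, p = 0.1, the lowest the design allows). *Myh7* was most frequent in 1.49, 4.24 and 6.49% in WT mice and 9.15, 12.2 and 13.7% in Aromhum mice, a difference of 7.61 points with the same lowest p of 0.1. These rest on few *Myh7* barcodes, 2, 10 and 5 in WT and 15, 16 and 26 in Aromhum mice. *Myh2* was most frequent in 16.4, 31.4 and 11.7% in WT mice and 29.9, 32.1 and 32.1% in Aromhum mice, where WT replicate 2 lay with the Aromhum mice.

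**Figure D3:**
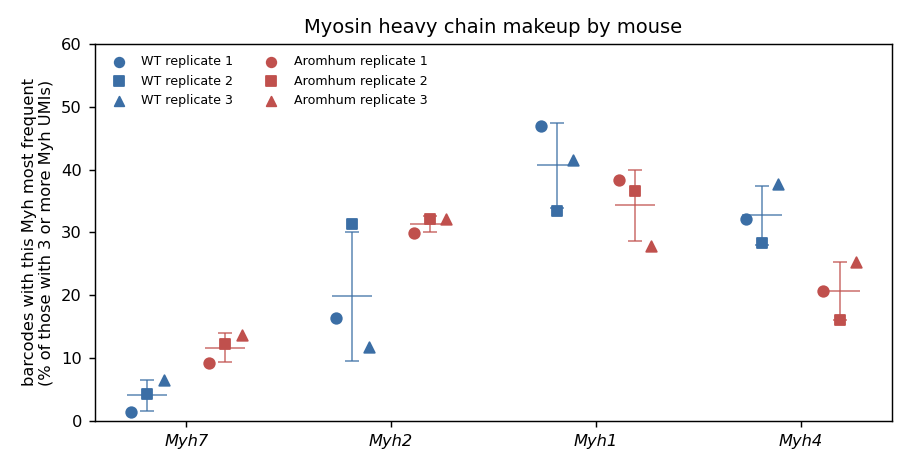
Percent of *Acta1*-high barcodes, among those with at least 3 adult heavy chain UMIs, whose most frequent heavy chain was *Myh7*, *Myh2*, *Myh1* or *Myh4*, by mouse; bars give the mean ± SD of 3 mice. The Aromhum mice lay at 9.15 to 13.7% for *Myh7*, above the WT mice at 1.49 to 6.49%, and at 16 to 25.3% for *Myh4*, below the WT mice at 28.4 to 37.7%.

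The slow troponins went with *Myh7*. *Tnni1* made up 0.649, 2.31 and 5.65% in WT mice and 4.88, 5.58 and 9.62% in Aromhum mice of the UMIs of the slow and fast troponin I pair *Tnni1* and *Tnni2* (p = 0.3, exact permutation test, 2-sided). *Tnnt1* made up 3.26, 5.22 and 15% in WT mice and 12.2, 14.5 and 23.6% in Aromhum mice of the *Tnnt1* and *Tnnt3* pair (p = 0.3, exact), and *Tnnc1* 0.911, 2.23 and 6.78% in WT mice and 4.57, 6.93 and 9.65% in Aromhum mice of *Tnnc1* and *Tnnc2* (p = 0.2, exact). WT replicates 1 and 2 were below every Aromhum mouse in all 3 pairs and WT replicate 3 was above Aromhum replicate 1 in all 3. Under the same limits on genes and mitochondrial UMIs the genotypes did not overlap in any of the 3 pairs, and the WT and Aromhum means were 1.48% and 5.75% for *Tnni1*, 4.5% and 14.7% for *Tnnt1* and 1.66% and 5.87% for *Tnnc1* (exact permutation test, p = 0.1 each). With all barcodes, the slow calcium pump *Atp2a2* made up 0.849, 2.09 and 3.86% in WT mice and 5.16, 4.86 and 5.07% in Aromhum mice of the *Atp2a2* and *Atp2a1* pair, without overlap. *Casq2* made up 0.461, 5.24 and 1.79% in WT mice and 3.92, 6.1 and 3.26% in Aromhum mice of the *Casq2* and *Casq1* pair. These shares overlap and rest on 1 to 11 *Casq2* UMIs per mouse. *Myl2* made up 0.957, 2.43 and 9.96% in WT mice and 4.44, 6.29 and 12.9% in Aromhum mice of the *Myl2* and *Mylpf* pair, with WT replicate 3 above Aromhum replicates 1 and 2. The pairs were chosen after the data were seen, and the exact tests of the 4 heavy chains and 3 troponin pairs could not reach 0.05 singly in this design, so no adjusted p is given.

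Genes were compared between genotypes on UMIs summed over the *Acta1*-high barcodes of each mouse, with edgeR's quasi-likelihood test. P-values were adjusted by Benjamini-Hochberg across 4687 genes, those past the filter on low counts, and measure the spread between mice. Of these genes 5 were higher in Aromhum mice (0.107%) and 1 was lower (0.0213%) at an adjusted p under 0.05, 6 in either direction (0.128%). The counts changed when a mouse was left out: without WT replicate 3 or Aromhum replicate 2 no gene passed, without Aromhum replicate 1 there were 13 higher and 1 lower, without WT replicate 2 10 and 0, without WT replicate 1 6 and 0 and without Aromhum replicate 3 7 and 0. Of the main 6 genes, these calls held 6 without Aromhum replicate 1 and 1 without WT replicate 2. They held 3 without WT replicate 1 and 2 without Aromhum replicate 3. The fold changes without WT replicate 3 and without Aromhum replicate 2 were 2.27 and 2.28 for *Col3a1*, 3 and 3.25 for *Ren1*, 3.39 and 2.8 for *Pnoc*, 3.08 and 2.79 for *C3*, 1.65 and 1.7 for *Mid1ip1* and -0.93 and -0.88 for *Cib2*. The slow and fast fiber lists held none of the 6, so the values of their genes are given as values. The slow list was written with earlier results of these data known, and its direction is no independent evidence.

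All 11 slow-fiber genes tested, of 13 listed, had a fold change above 0, with a median of 0.93 on the log2 scale against 0.01 over all genes tested. Single mice moved this median, to 0.53 without WT replicate 1, 1.85 without WT replicate 3 and 0.56 without Aromhum replicate 3, where 10 of the 11 were above 0. None passed the test, and 2 of the 11 had normalized levels that did not overlap between genotypes, beside 8.06% of all genes that were higher without overlap. In the CPM below, which lack that normalization, *Myl6b*, *Myoz2*, *Atp2a2* and *Csrp3* did not overlap. *Myh7* was at 39.7, 121 and 237 CPM in WT mice and 195, 229 and 681 CPM in Aromhum mice (log2 fold change 1.44 ± 0.59, SE; adjusted p = 0.464). *Tnni1* was at 156, 488 and 1241 CPM in WT mice and 1131, 1120.3 and 2250.1 CPM in Aromhum mice (log2 fold change 1.15 ± 0.57, adjusted p = 0.557). For both, WT replicate 3 lay among the Aromhum mice. Its 5 *Myh7* barcodes held 89780 UMIs, with a median of 6946. *Tnni1* was at 7953 CPM in them, so few barcodes carried its level in WT replicate 3. *Myl6b*, an essential light chain of slow muscle, had the largest fold change of the list at 2.14 ± 0.46 (adjusted p = 0.141), from low levels of 8.17, 11.9 and 0 CPM in WT mice and 42.7, 24.6 and 44.3 CPM in Aromhum mice. *Myoz2* also separated the genotypes, at 834, 809 and 1071 CPM in WT mice and 1345, 1453 and 1603 CPM in Aromhum mice (log2 fold change 0.58 ± 0.18, adjusted p = 0.363). *Atp2a2*, the slow calcium pump, was at 21, 32.7 and 60.1 CPM in WT mice and 75.5, 62.8 and 82.6 CPM in Aromhum mice (log2 fold change 0.93 ± 0.31, adjusted p = 0.392). *Csrp3*, the muscle LIM protein of the Z-disc, was at 1086, 1834 and 2418 CPM in WT mice and 3612, 2499.9 and 3438 CPM in Aromhum mice (log2 fold change 0.72 ± 0.27, adjusted p = 0.451). *Myl3* and *Myl2*, slow light chains, had fold changes no larger than about their errors, 0.53 ± 0.68 and 0.7 ± 0.69.

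Of the 15 fast-fiber genes, 14 had a fold change below 0, with a median of -0.26, and 5 did not overlap between genotypes, beside 6.76% of all genes that were lower without overlap. The median was -0.08 in limma with equal weight of barcodes, each scaled to the same total before averaging, -0.41 without Aromhum replicate 1 and -0.46 without Aromhum replicate 3. *Myh2* was the exception at 0.46 ± 0.25 (adjusted p = 0.586). *Pvalb* was at 3175, 2508 and 3799.9 CPM in WT mice and 1974, 1393 and 2133 CPM in Aromhum mice (log2 fold change -0.9 ± 0.23, adjusted p = 0.219), and every Aromhum mouse was below every WT mouse. *Atp2a1*, the fast calcium pump, was at 2454, 1529 and 1497 CPM in WT mice and 1386, 1229.5 and 1547 CPM in Aromhum mice (log2 fold change -0.51 ± 0.21, adjusted p = 0.471). *Myh4* and *Myh1* differed by -0.26 ± 0.26 and -0.26 ± 0.23. The fast troponins *Tnnc2*, *Tnni2* and *Tnnt3* differed by -0.17 to -0.2. None of the 15 passed the test. Sorting by fiber group, in *Myh7* barcodes alone *Tnnt1* was at 18868 to 23491 CPM in WT and 19998 to 24938 CPM in Aromhum mice. In *Myh4* barcodes alone *Pvalb* was at 5511 to 8105 CPM in WT and 5914 to 8019.5 CPM in Aromhum mice. The genotypes overlapped for both, while some other genes of the same groups did not overlap. The examples that follow were picked from such genes, and the share of genes without overlap within a group was not counted. Over all *Acta1*-high barcodes, 14.8% of the genes tested had normalized levels that did not overlap, in either direction. *Tnni2* in *Myh7* barcodes was at 182, 286 and 546 CPM in WT mice (2, 10 and 5 barcodes) and 2055, 1138 and 1039 CPM in Aromhum mice. *Ckm* in *Myh4* barcodes was at 25717 to 27724 CPM in WT and 32440.5 to 35410 CPM in Aromhum mice. In the *Myh1* group *Tnnt1* was at 0, 6.75 and 14 CPM in WT mice and 169, 310.1 and 373 CPM in Aromhum mice, with no overlap. In the *Myh2* group, where its level was higher, it was at 1968, 259 and 1140.2 CPM in WT mice and 2064, 981 and 1732 CPM in Aromhum mice, which overlap. Over only the 837 barcodes of the 3 fast groups, 9 of the 10 slow genes that could be fitted stayed above 0, with a median of 1.14.

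**Figure D4:**
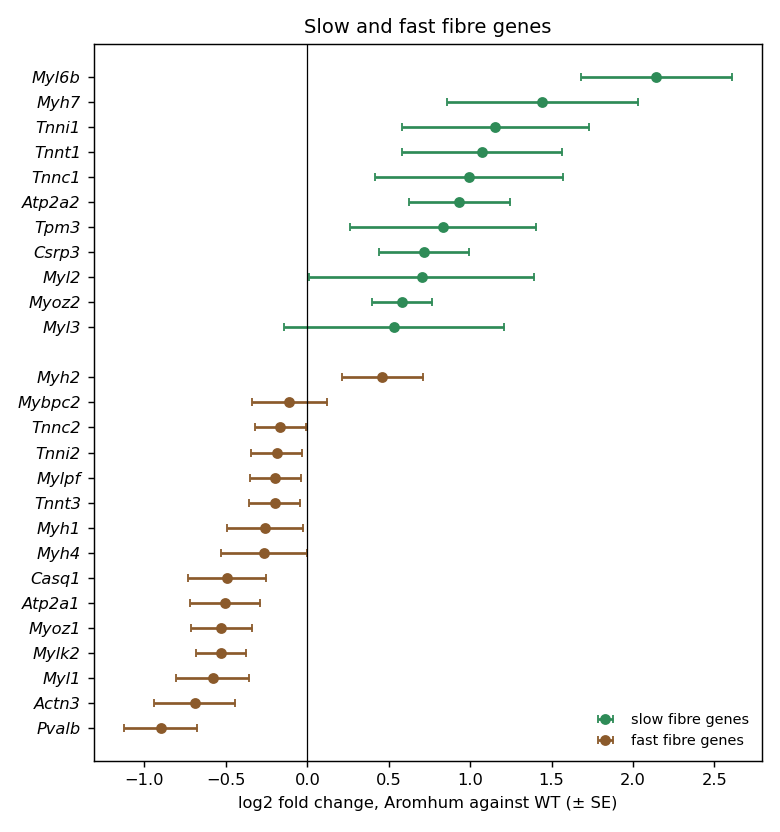
Log2 fold changes (points, Aromhum against WT) with standard errors (bars) of the slow (green) and fast (brown) fiber genes tested in *Acta1*-high barcodes, from edgeR. The 11 slow genes lie right of 0 and 14 of the 15 fast genes left of it, and none passed an adjusted p of 0.05.

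The 5 genes that were higher in Aromhum mice included 4 whose level in the *Acta1*-high barcodes was a small part of that in the other barcodes. *Col3a1*, the fibrillar collagen III of fibroblasts, had 14, 42 and 14 UMIs in WT mice and 118, 93 and 230 UMIs in Aromhum mice, or 16.3, 31.2 and 24 CPM in WT mice and 96.8, 127 and 157 CPM in Aromhum mice (log2 fold change 2.27 ± 0.28, adjusted p = 0.0274). These levels were 0.753% to 2.69% of those in the other barcodes, and a single barcode held 42 of the 93 UMIs of Aromhum replicate 2 and another 102 of the 230 of Aromhum replicate 3. *Ren1*, renin, had 12, 3 and 0 UMIs in WT mice and 82, 53 and 70 UMIs in Aromhum mice (log2 fold change 3.36 ± 0.51, adjusted p = 0.0356), at most 2.83% of the level in the other barcodes. In those it was at 2635, 78.6 and 216 CPM in WT mice and 7606, 4496 and 4696 CPM in Aromhum mice, so WT replicate 1 was the highest WT mouse in both. *Pnoc*, the precursor of nociceptin, had 2, 3 and 4 UMIs in WT mice and 27, 22 and 41 UMIs in Aromhum mice (log2 fold change 2.87 ± 0.42, adjusted p = 0.0356). With barcodes of at least 1% *Acta1*, which adds those of 1% to 2% with more UMIs of other cell types, its fold change turned to -1.63 (adjusted p = 0.667 in edgeR), and *Ren1* was at 2.44 (0.186 as adjusted p). With at most 5% mitochondrial UMIs *Ren1* was at 3.29 and *Pnoc* at 2.68 (adjusted p = 0.0827 and 0.118 in edgeR). In DESeq2 *Ren1* was at 3.35 and did not pass either (adjusted p = 0.179).

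*C3*, the central complement component, had 9, 10 and 4 UMIs in WT mice and 44, 89 and 125 UMIs in Aromhum mice (log2 fold change 3.13 ± 0.48, adjusted p = 0.0356). With only barcodes whose markers of other cell types were under 0.5% of UMIs its fold change was 1.61 (adjusted p = 0.138 in edgeR). With *Acta1* of at least 1% it was 2.18 (adjusted p = 0.403 in edgeR). A single barcode held 78 of the 89 UMIs of Aromhum replicate 2, and another 89 of the 125 of Aromhum replicate 3. Without the 5 doublets marked by Scrublet none of the 6 genes passed the test, while their fold changes were 2.13 for *Col3a1*, 3.37 for *Ren1*, 2.86 for *Pnoc*, 2.64 for *C3*, 1.76 for *Mid1ip1* and -0.91 for *Cib2*. Their adjusted p was then 0.0528 for *Ren1*, *Pnoc*, *Mid1ip1* and *Cib2*, 0.0762 for *Col3a1* and 0.22 for *C3* in edgeR. In the other barcodes *Col3a1*, *Ren1*, *Pnoc* and *C3* differed by 1.76, 2.52, 2.27 and 2.08 on the log2 scale. The difference between *Acta1*-high and other barcodes in the genotype effect had an adjusted p of 0.198 to 0.918 for these 4 genes. Of the 9 fibroblast markers tested, *Col3a1* was the 1 past the threshold. With *Col3a1* counted, 7 of the 9 were above 0, with a median of 1.3, and 5 were higher without overlap, beside 8.06% of all genes. The median was 2.03 without WT replicate 1, 0.84 without Aromhum replicate 1, 0.77 without Aromhum replicate 3, 0.58 with at most 5% mitochondrial UMIs, 0.76 without doublets and 0.52 in barcodes of the fast groups. *Col1a1* was at 23.4, 4.46 and 12 CPM in WT mice and 52.5, 86 and 38.9 CPM in Aromhum mice (log2 fold change 2.09 ± 0.46, adjusted p = 0.141). The summed level of the list overlapped, at 746, 222 and 191 CPM in WT mice and 589, 663 and 638 CPM in Aromhum mice (exact permutation test, 2-sided, p = 0.4), with WT replicate 1 highest of all 6. Of *Dcn*, a marker of the list, a single barcode held 294 of 392 UMIs in WT replicate 1. In WT replicates 2 and 3 the most in a barcode was 2 of 87 and 5 of 36. It was 166 of 275, 125 of 197 and 149 of 310 in the Aromhum mice. Of *Pnoc* and *Ren1*, a single barcode held 9 of 22 and 14 of 53 UMIs in Aromhum replicate 2. The part of RNA from other cells in the results of *Col3a1*, *Ren1*, *Pnoc* and *C3* was not tested.

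*Mid1ip1* and *Cib2* were of another kind. *Mid1ip1*, which promotes the activity of acetyl-CoA carboxylase in fatty acid synthesis, was at 24.5, 20.8 and 15.4 CPM in WT mice and 96, 81.9 and 53.2 CPM in Aromhum mice (log2 fold change 1.76 ± 0.25, adjusted p = 0.0356). The lowest Aromhum mouse was above the highest WT mouse. *Mid1ip1* did not pass with equal weight of barcodes (2.2, adjusted p = 0.0731, limma) or without WT replicate 2 (1.75, adjusted p = 0.0878, edgeR). Nor did it under the study's limits on genes and mitochondrial UMIs (1.85, adjusted p = 0.0736, edgeR). Its genotype effect differed from that in the other barcodes, where the fold change was -0.56 (difference 2.3 ± 0.28, interaction in edgeR, adjusted p = 7.6e-13). Pooled over mice, *Mid1ip1* was at 85, 71.9 and 41 CPM in the *Myh7*, *Myh2* and *Myh1* groups and 9.33 CPM in the *Myh4* group. Within the *Myh2* group it was at 37.6, 12 and 16.5 CPM in WT mice and 131, 79.9 and 86.2 CPM in Aromhum mice, without overlap, and within the *Myh1* group at 26.6, 29.2 and 23.4 CPM in WT mice and 68.2, 76.2 and 29.5 CPM in Aromhum mice, where Aromhum replicate 3 was barely above WT replicate 2. Within the *Myh4* group it was at 13.2, 0 and 5.48 CPM in WT mice and 6.39, 14.4 and 22.3 CPM in Aromhum mice, and within the *Myh7* group at 0, 71.5 and 22.3 CPM in WT mice and 159, 180.3 and 49.7 CPM in Aromhum mice, and in both the genotypes overlapped.

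*Cib2*, a calcium- and integrin-binding protein, was the 1 gene lower past the threshold. It was at 201, 187 and 178 CPM in WT mice and 128, 104 and 97.6 CPM in Aromhum mice (log2 fold change -0.9 ± 0.14, adjusted p = 0.0356), and the genotypes did not overlap. In the other barcodes it averaged 3.24 CPM with a fold change of 0.04, and the difference between the effects was -0.96 ± 0.23 (interaction in edgeR, adjusted p = 0.00489). By fiber group *Cib2* was at 342, 171 and 57.4 CPM in the *Myh4*, *Myh1* and *Myh2* groups and 4.64 CPM in the *Myh7* group. Within the *Myh4* group the WT mice were at 323 to 409.8 CPM and the Aromhum mice at 245 to 358 CPM, which overlap. WT and Aromhum mice also overlapped in the *Myh1* group (145 to 220 and 131.5 to 178 CPM) and the *Myh2* group (59.1 to 67.2 and 40.4 to 65.3 CPM). *Cib2* did not pass in barcodes of the fast groups (-0.8, adjusted p = 0.0734, edgeR). Nor did it with equal weight of barcodes (-0.76, adjusted p = 0.137, limma) or under the study's limits on genes and mitochondrial UMIs (-0.73, adjusted p = 0.159, edgeR). The next lower genes by p did not pass: *Chac1*, which degrades glutathione (log2 fold change -1.92 ± 0.33, adjusted p = 0.0693), *Vwa1* of the pericellular matrix (log2 fold change -1.59 ± 0.32, adjusted p = 0.133), the stress gene *Gadd45b* (log2 fold change -1.01 ± 0.22, adjusted p = 0.141) and the phospholipase *Gdpd3* (log2 fold change -1.14 ± 0.27, adjusted p = 0.189).

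**Figure D5:**
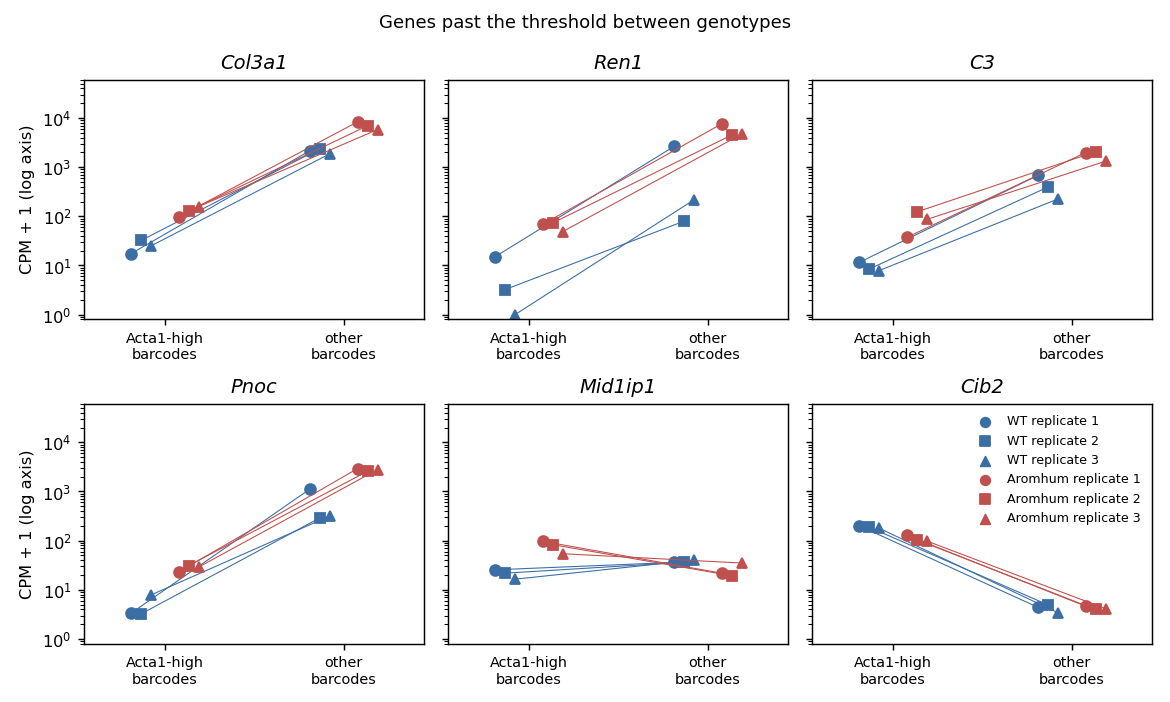
Levels (CPM plus 1, log axis) of the 6 genes past the threshold in the *Acta1*-high and other barcodes of each mouse, with a line joining both values of a mouse, blue for WT and red for Aromhum. *Col3a1*, *Ren1*, *C3* and *Pnoc* are far higher in the other barcodes, *Mid1ip1* averages 30.5 CPM in the other barcodes, and *Cib2* is high in the *Acta1*-high barcodes with the Aromhum mice at 97.6 to 128 CPM below the WT mice at 178 to 201 CPM.

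Other functions of the fiber showed no gene past the test. Of sarcomere genes shared by both fiber types, 16 of the 25 genes tested were above 0 and 9 below, with a median of 0.17. *Cryab*, a small heat shock protein that guards desmin, was at 3972, 6276 and 6379 CPM in WT mice and 10186, 8777 and 7118 CPM in Aromhum mice without overlap (log2 fold change 0.52 ± 0.21, adjusted p = 0.459), and *Tpm1* differed by -0.43 ± 0.17 (adjusted p = 0.464). Of the genes of excitation-contraction coupling and calcium handling, 6 of the 18 genes tested were above 0 and 12 below, with a median of -0.12. With equal weight of barcodes this turned to 10 above and 8 below, with a median of 0.06. Of glycolysis, glycogen and phosphocreatine genes, 5 of the 22 genes tested were above 0 and 17 below, with a median of -0.11, which turned with equal weight of barcodes to 13 above and 9 below and a median of 0.07. *Aldoa*, the muscle aldolase, was at 17026, 15984 and 16533 CPM in WT mice and 14578, 11850.1 and 13186 CPM in Aromhum mice (log2 fold change -0.44 ± 0.15, adjusted p = 0.396), with the Aromhum mice below the WT mice. Of nuclear-encoded oxidative and fatty acid genes, 5 of the 22 genes tested were above 0 and 17 below, with a median of -0.13, against 10 above and 12 below with equal weight of barcodes and medians of -0.05 and -0.3 without Aromhum replicate 1 and 3. *Mb* was at 6521 to 9502 CPM over the 6 mice (log2 fold change 0.17 ± 0.17, adjusted p = 0.772). All 12 mitochondrial DNA genes tested were below 0, with a median of -1.39, and *mt-Co3* was at 2436, 6781 and 819 CPM in WT mice and 916, 2496 and 704 CPM in Aromhum mice, so that WT replicate 2 alone stood above all Aromhum mice. Without WT replicate 2 the median of the mitochondrial genes was -0.36, and without Aromhum replicate 2 it was -2.13. Of the nuclear-retained RNAs, 3 of the 3 genes tested were above 0 and 0 below, with a median of 1.43 (0.88 with markers of other cell types under 0.5% of UMIs), and *Malat1* differed by 0.85 ± 0.35 (adjusted p = 0.464).

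No gene of muscle wasting passed the test. Of 24 atrophy and proteolysis genes 18 were tested, 9 above and 9 below 0. The ubiquitin ligases *Trim63* (MuRF1) and *Fbxo32* (atrogin-1) were at 211, 154 and 211 CPM in WT mice and 208, 212 and 176 CPM in Aromhum mice (log2 fold change -0.07 ± 0.16, adjusted p = 0.934) and at 139, 78.7 and 85.8 CPM in WT mice and 111, 135 and 81.2 CPM in Aromhum mice (log2 fold change -0.03 ± 0.23, adjusted p = 0.991). *Mstn*, myostatin, had too few UMIs to be tested, at 0 to 16.3 CPM. Of 23 denervation and synapse genes, 7 were tested and none passed. *Chrna1*, the acetylcholine receptor alpha subunit, was at 8.17, 2.97 and 10.3 CPM in WT mice and 10.7, 16.4 and 10.2 CPM in Aromhum mice (log2 fold change 0.8 ± 0.46, adjusted p = 0.608), and *Gadd45a*, a denervation-responsive gene, at 24.5, 14.9 and 17.2 CPM in WT mice and 10.7, 9.55 and 4.09 CPM in Aromhum mice (log2 fold change -1.36 ± 0.38, adjusted p = 0.302).

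Developmental genes were few. Of 15 listed 7 were tested and none passed, with 6 above 0, 1 below and a median of 0.37 (0.23 to 0.54 under the alternatives). *Myh3*, the embryonic heavy chain, had 4 UMIs in Aromhum replicate 1 and none elsewhere. *Myh8*, the neonatal heavy chain, had 157 UMIs in 22 barcodes of Aromhum replicate 1, 8 UMIs in 5 barcodes of Aromhum replicate 2, and none in Aromhum replicate 3 or the WT mice, where 0 allows up to 2.05 and 2.23 to 5.15 CPM. *Tnnt2*, the troponin T of heart and developing muscle, was at 25.7, 14.1 and 22.3 CPM in WT mice and 112, 58.7 and 45 CPM in Aromhum mice (log2 fold change 1.73 ± 0.35, adjusted p = 0.133). *Myog*, which drives myoblast differentiation, was at 0, 29 and 0 CPM in WT mice and 45.1, 34.1 and 25.2 CPM in Aromhum mice (log2 fold change 1.3 ± 0.7, adjusted p = 0.586), so WT replicate 2 lay among the Aromhum mice.

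*Esr1*, estrogen receptor alpha, was at 11.7, 5.2 and 8.58 CPM in WT mice and 12.3, 10.9 and 6.82 CPM in Aromhum mice (log2 fold change 0.17 ± 0.42, adjusted p = 0.936), below its mean of 44.6 CPM in the other barcodes. *Nr3c1*, the glucocorticoid receptor, was at 26.9, 26.7 and 17.2 CPM in WT mice and 41, 38.2 and 29.3 CPM in Aromhum mice (log2 fold change 0.44 ± 0.23, adjusted p = 0.579). Of 22 steroid receptor and response genes 8 were tested and none passed, and *Sms*, spermine synthase of the androgen-responsive polyamine pathway, was at 118, 130 and 136 CPM in WT mice and 82, 94.2 and 99.6 CPM in Aromhum mice (log2 fold change -0.58 ± 0.16, adjusted p = 0.302). Of secreted muscle factors, 5 of the 7 genes tested were above 0 and 2 below, with a median of 0.31. Without Aromhum replicate 3 there were 3 above and 3 below, with a median of -0.08, and the median was 0.13 and 0.14 without WT replicate 1 or 3. *Sparc*, a matrix protein that fibroblasts also make, was at 72.4, 90.6 and 54.9 CPM in WT mice and 124, 143 and 191 CPM in Aromhum mice (log2 fold change 0.94 ± 0.23, adjusted p = 0.208) against 6054 CPM in the other barcodes.

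The sum of 16 immediate early and heat shock genes did not overlap between genotypes, at 1657 to 2090.4 CPM in WT and 2664 to 3943 CPM in Aromhum mice (exact permutation test, 2-sided, p = 0.1, the lowest the design allows). *Hspb1* alone made up most of the difference between the means. Of the 15 tested, 11 were above 0, with a median of 0.26, and none passed. That median was 0.05 with *Acta1* of at least 1%, 0.13 with markers of other cell types under 0.5% of UMIs and 0.17 without Aromhum replicate 3. *Hspb1*, a small heat shock protein of the sarcomere, was at 871, 944 and 1311 CPM in WT mice and 3022, 2134 and 1453 CPM in Aromhum mice (log2 fold change 0.94 ± 0.25, adjusted p = 0.261), and in the other barcodes it went the other way, by -0.92. *Fos*, an early response transcription factor, was at 98.1, 95.8 and 99.5 CPM in WT mice and 167, 184 and 244 CPM in Aromhum mice (log2 fold change 0.92 ± 0.19, adjusted p = 0.133), and *Jun* at 117, 98.8 and 99.5 CPM in WT mice and 144, 254 and 203 CPM in Aromhum mice (log2 fold change 0.81 ± 0.21, adjusted p = 0.247).

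Whether a genotype effect differed between the *Acta1*-high and the other barcodes was tested as an interaction in edgeR with the mouse as a term, over 15178 genes. It passed for 257 genes (1.69%), 146 more positive in the *Acta1*-high barcodes and 111 more negative. Leaving out a mouse moved this count from 128 (without Aromhum replicate 2) to 407 (without Aromhum replicate 3), with 136 without WT replicate 2, 145 without Aromhum replicate 1 and 171 without WT replicate 3. The other barcodes are a mixture of cell types, and between genotypes 1970 of 15318 genes were higher in them and 1801 lower. Of the 257 genes, 209 were tested in the *Acta1*-high barcodes alone, and *Mid1ip1* and *Cib2* were the 2 past the threshold there. In the other barcodes 178 of the 257 passed the test. In the slow list *Myh7*, *Tnnt1*, *Myl2* and *Tpm3* passed the interaction, with differences of 0.99 ± 0.28, 1 ± 0.29, 1.01 ± 0.3 and 1.71 ± 0.28. In the *Acta1*-high barcodes WT replicate 3 lay among the Aromhum mice for *Myh7*, *Tnnt1* and *Myl2*. In the other barcodes *Myh7* was at only 0.48 to 2.1 CPM, *Myl2* at 1.89 to 11 CPM and *Tnnt1* at 7.17 to 15.4 CPM. The p-values of every interaction given here come from a spread pooled over genes, so a gene's own spread between mice weighs little. *Myod1*, the myoblast determination factor, differed by -0.02 in the *Acta1*-high and -2.27 in the other barcodes (interaction 2.27 ± 0.31, adjusted p = 5.64e-10).

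Barcodes were also split by their mitochondrial share. In WT replicates 1 and 2 and Aromhum replicate 2, the 3 mice with at least 10 barcodes on each side of 5% mitochondrial UMIs (15, 89 and 13 above), the 4 nuclear-retained RNAs summed to 1952, 1738 and 16138 CPM of non-mitochondrial UMIs above 5% and to 596, 353 and 1012 below it. The mean difference was 2.67 on the log2 scale, higher in 3 of 3 mice (exact permutation test within mice, 2-sided, p = 0.25, the lowest that 3 mice allow). At a limit of 10%, which 2 mice allowed, WT replicate 2 was at 612 above and 503.8 below, and Aromhum replicate 2 at 21650.1 and 1072, so the difference in WT replicate 2 was smaller than at 5%. Across barcodes, Spearman's rho between the *Malat1* and *Neat1* share and the mitochondrial share was 0.03 (WT replicate 2) to 0.31 (WT replicate 3), as a description. At the 5% limit the fast-fiber genes summed to 155137, 130235 and 86441 above and 170831, 140925 and 127879 below, a mean log2 difference of -0.27 (same exact test, p = 0.25). The endothelial markers were higher above 5% by 2.25 on the same scale.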

How the data were processed

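UMIs were measured by 10x Genomics 3′ single-cell RNA sequencing of LAM suspensions from 3 WT and 3 Aromhum mice. The deposited table holds counts, raw UMIs per gene and barcode that the authors made with Cell Ranger 3.0.2 on mm10 with human *CYP19A1* added; all values were whole numbers, for 16494 genes and 63647 barcodes. The barcodes, gene lists and tests were chosen with earlier results of these data known.

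Barcodes were taken by the rule given in the report. Scrublet (scanpy 1.11.5) marked 1.29% to 2.97% of the barcodes of a library as doublets, which were kept in the main values; in 2 libraries its automatic limit marked none, and the median limit of the other libraries was used. Counts were summed per mouse and tested with edgeR 4.0.16 in R 4.3.3 (TMM, filterByExpr, quasi-likelihood test, Benjamini-Hochberg threshold 0.05), because barcodes of a mouse are not replicates. The mouse is the replicate. The scripts were tested on simulated data. Single values per mouse were compared by 2-sided exact permutation tests. Limits from a count of 0 are 3 UMIs per mouse and cover counting error only. Alternatives used DESeq2 1.42.0, limma 3.58.1, other limits of the rule and each mouse left out; an added one kept only barcodes with a fast heavy chain. The genes named were the markers and rule genes, the genes past the threshold or next to it in each direction, the up to 4 highest genes of each list, and a fixed set (the heavy chains, *Tnni1*, *Tnni2*, *Esr1*, *Nr3c1*, atrophy genes, *Chrna1*, *Sln*, *Pvalb*, *Malat1* and *Neat1*); others were chosen after their values were seen, among them *CYP19A1*, *H19*, *Myl6b*, *Myl3*, *Atp2a2*, *Myoz2*, *Ppp1r3c*, *Scx*, *Slpi*, *Fosb*, and, for the fiber groups, *Actn3*, *Fabp3*, *Ldha* and *Tpm3*. Scripts ran in Python 3.11.15 with scipy 1.17.1, pandas 2.3.3, numpy 2.4.6 and matplotlib 3.10.9.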

Additional observations from a re-analysis of the deposited data

Results flagged for a closer look

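For 28 of 190 genes of the muscle lists or past the threshold that were tested in both (14.7%, beside 1.69% of all 15178 genes and 209 of the 4687 tested in the *Acta1*-high barcodes), the genotype effect in *Acta1*-high barcodes differed from that in the other barcodes of the same mice, by the interaction in edgeR (adjusted p under 0.05). Values are the difference of log2 fold changes, *Acta1*-high minus other barcodes. Of the genes past the threshold, they were *Mid1ip1* 2.3 and *Cib2* -0.959. Of slow-fiber genes, they were *Tpm3* 1.71, *Myl2* 1.01, *Tnnt1* 0.999 and *Myh7* 0.987, and in the *Acta1*-high barcodes alone these genes did not pass the test. Of immediate early and heat shock genes, they were *Hspb1* 1.79, *Hspa1b* 1.53, *Fos* 1.51, *Fosb* 1.42, *Atf3* 1.21, *Ier2* 1.1, *Hspa1a* 1.08 and *Jun* 1.07. All 8 differences were positive. The log2 fold changes in the other barcodes were -0.92 for *Hspb1*, -1.34 for *Hspa1b*, -0.62 for *Fos*, 0.09 for *Fosb*, -0.56 for *Atf3*, -1.01 for *Ier2*, -1.41 for *Hspa1a* and -0.3 for *Jun*, of which those of *Fosb*, *Atf3* and *Jun* did not pass the test. In the *Acta1*-high barcodes none of the 8 genes passed, and *Hspa1a* was at -0.28. Of calcium, sarcomere and glycogen genes, they were *Fbp2* 2.51, *Xirp1* 2.23, *Slc2a4* 1.3, *Hrc* 1.28, *Ckmt2* 1.09, *Trdn* -1.89 and *Ak1* -1.6. Of developmental, oxidative and nuclear genes, they were *Myod1* 2.27, *Cd36* 1.21, *Neat1* 1.12 and *Myl4* -1.13. Of wasting and secreted genes, they were *Fbxo32* -1.32, *Eif4ebp1* -0.975 and *Vegfb* -0.771. The other barcodes are a mixture of cell types, and the part of its makeup in these differences was not tested.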

How the results depend on the processing

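The counts of genes depended on the settings. Against 5 higher and 1 lower, there were 140 and 63 with no filter on low counts, 17 and 3 with DESeq2, 9 and 0 with limma on equal weights of barcodes, 2 and 1 with at most 5% mitochondrial UMIs, 5 and 2 with markers of other cell types under 0.5% of UMIs, 4 and 0 in barcodes of the fast groups (chosen after the data were seen), and 0 and 0 under the study's limits on genes and mitochondrial UMIs (unadjusted p under 0.05 for 202 and 142 genes) and without Scrublet doublets (273 and 191). Leaving out a mouse gave 0 to 13 higher and 0 to 1 lower, with 0 and 0 without WT replicate 3 or Aromhum replicate 2 (unadjusted p under 0.05 for 271 and 156, and 227 and 148, genes), 10 higher without WT replicate 2 and 13 without Aromhum replicate 1. RLE size factors and *Acta1* of at least 1% gave 5 and 1 again, with 6 and 3 genes shared with the main result. With the replicate number as a block there were 56 higher and 56 lower; the deviations of same-numbered mice correlated at 0.184, 0.0468 and 0.132, every mouse correlated best with its own number, and as 1 of the 3 was under 0.1 the numbers were not taken as pairs. Of 11 slow-fiber genes 9 passed with the block and 9 with no filter, and at most 2 under any other setting. Over all genes, 56 higher and 56 lower of 4687 passed with the block, and 140 higher and 63 lower of 13277 with no filter. With no filter the adjusted p of *Col3a1* in edgeR went from 0.0274 to 1.6e-20, at fold changes of 2.27 and 2.28. That of *C3* went from 0.0356 to 2.4e-23, at 3.13 and 3.14. The passes with no filter are therefore not comparable with those of the main fit. With the block 4 of 15 fast-fiber and 10 of 12 mitochondrial DNA genes passed too, and no setting gave more than 4 and 11 of them. The median of the slow genes ran from 0.53 (without WT replicate 1) to 1.85 (without WT replicate 3). That of the fast genes stayed between -0.46 and -0.08. *Pnoc* turned to -1.63 with *Acta1* of at least 1% (adjusted p = 0.667). The share of *Acta1*-high barcodes turned sign with at most 5% mitochondrial UMIs (0.0789 points), under the study's limits (0.014), and without a mouse ran from -0.661 to 0.299. Leaving out a mouse, the mitochondrial difference ran from -1.61 to -0.135 points, the *Myh4* share from -9.26 to -3.88 (-1.45 under the study's limits, exact p = 0.9), the *Myh7* share from 2.85 to 8.76 (7.26, exact p = 0.1), and the interaction count from 128 to 407. *Acta1* of at least 10% left too few barcodes for these fits and was run for the share alone. Depth limits rare genes: a mouse held 582653 to 1465744 UMIs in *Acta1*-high barcodes.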

Other observations

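Several genes of muscle differed without overlap but did not pass the test, and were chosen after their values were seen. Of all 4687 genes tested, 8.06% had normalized levels that were higher in Aromhum mice without overlap. *H19*, an imprinted noncoding RNA abundant in muscle, was at 176, 291 and 166 CPM in WT mice and 630, 954 and 399.8 CPM in Aromhum mice (log2 fold change 1.5 ± 0.29, adjusted p = 0.108 in edgeR). By fiber group it was at 745, 547 and 265 CPM in the *Myh2*, *Myh7* and *Myh1* groups and 113 CPM in the *Myh4* group, as pooled levels over mice that differ in their share of each group. Within the *Myh1* group it was at 138, 103 and 173 CPM in WT mice and 403, 671 and 271 CPM in Aromhum mice, without overlap. The genotypes overlapped within the *Myh2* group, at 279.6, 621 and 397 CPM in WT mice and 1004, 1323 and 508 CPM in Aromhum mice, and within the *Myh4* group, at 119, 104 and 54.8 CPM in WT mice and 179, 188 and 98.1 CPM in Aromhum mice. *Ppp1r3c*, which targets protein phosphatase to glycogen, was at 124, 146 and 120.1 CPM in WT mice and 247, 235 and 248 CPM in Aromhum mice (log2 fold change 0.78 ± 0.14, adjusted p = 0.0693), and its effect differed from that in the other barcodes (interaction 1.18 ± 0.24, adjusted p = 0.000225). *Scx*, scleraxis, a transcription factor known from tendon, was at 57.2, 60.2 and 51.5 CPM in WT mice and 208, 156 and 83.2 CPM in Aromhum mice (log2 fold change 1.25 ± 0.27, adjusted p = 0.141; interaction 1 ± 0.24, adjusted p = 0.00361) and had UMIs in 293 of the 1131 barcodes. *Scx* averaged 10.9 CPM in the other barcodes.

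*Msln* and *Slpi*, genes of mesothelial and epithelial cells, had fold changes of 4.4 ± 0.79 and 4.32 ± 0.77 (adjusted p = 0.0693 and 0.0693 in edgeR). Of the 49 *Msln* UMIs of Aromhum replicate 3, 38 came from a single barcode, and of the 27 of Aromhum replicate 2, 25. For *Slpi* a single barcode held 210 of 248 and 133 of 146 UMIs in the same mice.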
